A study of Homo sapiens with 24 samples.

Results

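The 4 libraries described here hold RNA of a cytosolic lysate of K562 cells at the day 3 time point of CRISPR interference. The guide was against DDX3X or a control, with 2 libraries for each guide. They were chosen by their labels (assay, guide and day) from 24 libraries in all, which cover days 0, 3 and 14 and both RNA and ribosome footprints. K562 is an established human chronic myelogenous leukaemia line with erythroid features that carries the BCR-ABL1 fusion. CRISPR interference uses a catalytically dead Cas9 fused to a repressor, which a guide RNA brings to a promoter to lower transcription. Doxycycline at 50 ng/ml, which switches the system on, is given in the labels of every library, those of day 0 included. The guide sgDDX3 targets DDX3X, and sgGal4, named after a yeast transcription factor, is the control, so both groups carried the same system and differ by guide. The labels do not say how long before sampling doxycycline was added, so day 0 is the earliest time point and cannot be taken as cells without doxycycline. Nor do they say whether the 2 libraries of a group came from separate cultures or whether the cells were 1 clone. The p-values therefore measure only the spread between libraries of a group, estimated over all 12 RNA libraries, which may be technical. Per the labels' protocols, RNA came from the detergent lysate and was depleted of ribosomal RNA. The values are thus of that lysate, taken as cytosol, and not of whole cells. Nuclear RNA was present in it, as the levels of the nuclear RNA MALAT1 below show. A lower value in such a bulk sample cannot tell fewer cells that express a gene from less RNA per cell.

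DDX3X is an ATP-dependent DEAD-box RNA helicase on the X chromosome. It unwinds structured 5' leaders so that the small ribosomal subunit can scan them, and it has further roles in stress granules and in innate immune signalling. An mRNA's cytosolic level is set by its transcription, its export and its decay, while its footprints report ribosomes on it, so the readouts are set side by side here. A change in RNA is therefore not the same measurement as a change in translation.

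The 4 libraries held 26050562 and 10266619 counts with sgDDX3 and 43256563 and 12307651 with sgGal4, so replicate 1 was the deeper library in both groups and depth did not separate the guides. Levels are given as CPM, the counts of a gene per 1000000 counts of its library, corrected for composition with edgeR's trimmed mean of M values (TMM, factors of 0.99 to 1.02 at day 3). CPM are not divided by gene length, so they compare libraries for 1 gene and not genes with each other. Where a gene had no reads, up to 3 could have been missed by chance, equal to 0.0694 CPM in the deepest and 0.292 CPM in the shallowest of these libraries (counting error only). The K562 label was checked on 9 erythroid markers, which summed to 671 and 690 CPM with sgDDX3 and 766 and 833 CPM with sgGal4. Among them GATA1 lay between 161 and 186 CPM in all 4 libraries, and HBG1 was under 0.2 CPM. Of markers of other cell types, 1 of each set had 0 counts in all 4 libraries, namely MPO (myeloid), MS4A1 (B cell), PF4 (platelet) and COL1A2 (fibroblast). Sums over 5 myeloid markers were 52.2 and 49.3 CPM against 69.1 and 65.8 CPM, and sums over 5 lymphoid markers were 40.2 and 39.1 CPM against 49.05 and 45.3 CPM. These rested mainly on CD33 and CD7. The 5 fibroblast and epithelial markers summed to more, 158 and 168 CPM with sgDDX3 and 196 and 194 CPM with sgGal4. That set was therefore not absent, and its sums rested mainly on KRT18, KRT8 and EPCAM. The 4 megakaryocytic markers summed to 17.3 and 20.2 CPM with sgDDX3 and 18.6 and 16.99 CPM with sgGal4. The part of any other cell type in the results was not tested.

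The target was checked first. DDX3X (chrX:41333308-41364472, GRCh38.p14) was at 39.0 and 33.7 CPM with sgDDX3 and 185 and 174 CPM with sgGal4 at day 3. Both sgDDX3 libraries lay far below both control libraries, and the mean was 20.2% of the control. At day 0 the same gene was at 175 and 185 CPM with sgDDX3 and 215 and 203 CPM with sgGal4, 86.3% of the control, and at day 14 it was at 134 and 101 CPM with sgDDX3 and 201 and 187 CPM with sgGal4, 60.6% of the control. The difference at day 3 was -2.29 ± 0.11 (SE) on the log2 scale, with an adjusted p of 1.60e-11 in edgeR's quasi-likelihood test with Benjamini-Hochberg adjustment. It was the lowest value among the 30 genes described below by fold. The paralogue that lies on the Y chromosome is not described here. The sequence of the guide was not used here. For orientation, the 150 bases before the outermost start site that RefSeq lists for DDX3X (chrX:41333158-41333307, plus strand, GRCh38.p14), the kind of region that CRISPR interference is aimed at, read as follows.
DDX3X: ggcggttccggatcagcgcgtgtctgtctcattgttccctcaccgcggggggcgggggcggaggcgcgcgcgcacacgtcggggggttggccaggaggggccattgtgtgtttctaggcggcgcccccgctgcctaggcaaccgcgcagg
This stretch is 72.7% G and C, and the first 50 transcribed bases after it are 76% G and C.

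Across the transcriptome, changes at day 3 were many and mostly small. For a gene, rose and fell below mean higher and lower with sgDDX3 than with sgGal4 at day 3, except where days are compared. Of 18287 genes tested, 2574 (14.1%) passed an adjusted p of 0.05 in edgeR's test, 1405 higher (7.68%) and 1169 lower (6.39%) with sgDDX3. The median fold was 1.35 among the higher and 1.30 among the lower genes, and 80 and 51 of them changed at least 2-fold. The libraries of the guides did not overlap in 1404 of the higher and 1167 of the lower genes. The share over all genes was not counted, so for single genes that passed a lack of overlap is a description. Over the alternative fits the calls were 811 to 1501 higher and 531 to 1241 lower, the fewest on leaving out a library, and counts within gene lists moved with them. At day 0 the same comparison gave 1 gene (0.00547%), with 832 genes at an unadjusted p under 0.05, and DESeq2 gave 1. The change of the guide difference from day 0 to day 3, tested in the same fit, passed for 676 genes (3.7%), 434 upward (2.37%) and 242 downward (1.32%). In the sgDDX3 cells 3746 genes (20.5%; 11.1% up and 9.42% down) differed between day 0 and day 3, and in the sgGal4 cells 1038 (5.68%; 3.41% up and 2.27% down), with the same number of libraries. Calls were 10.8% higher and 8.52% lower among 12339 protein-coding genes, against 2.08% and 2.75% among 1201 long non-coding RNAs. On the X chromosome, where DDX3X lies, 28 of 596 genes were higher (4.7%) and 40 lower (6.71%). Of the neighbours of DDX3X, USP9X (a deubiquitinase, 0.37 ± 0.08) and CASK (a scaffold kinase, 0.42 ± 0.14) were higher and the other 3 tested did not pass. USP9X no longer passed when sgGal4 replicate 2 was left out, and the CASK call was lost on leaving out any 1 of the 4 libraries.

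**Figure D1:**
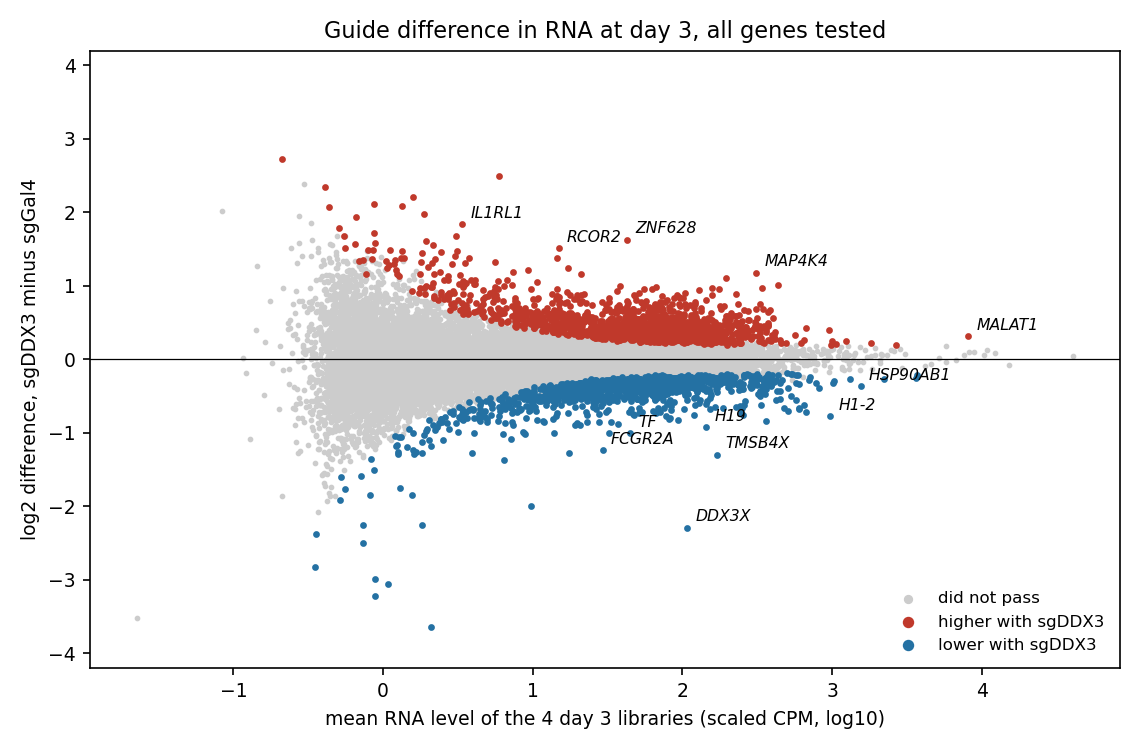
Each point is 1 of the 18287 genes tested: mean RNA level of the 4 day 3 libraries (scaled CPM, log10 axis) against the log2 difference sgDDX3 minus sgGal4, red and blue for genes that passed at an adjusted p of 0.05. DDX3X lies at -2.29, and most genes that passed lie within 1 log2 unit of 0.

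The 15 genes with the highest folds among those with at least 10 CPM include kinases, exchange factors, transcriptional regulators and membrane proteins. Several are abundant. MAP4K4, a kinase upstream of the JNK pathway, was at 427 and 438 CPM with sgDDX3 and 195 and 186 CPM with sgGal4. Both sgDDX3 libraries exceeded both controls more than 2-fold (1.18 ± 0.08, SE; adjusted p = 8.93e-09 by edgeR). IRAK1, the kinase that carries signals from interleukin-1 and Toll-like receptors, was at 244 and 289 CPM with sgDDX3 and 126 and 121 CPM with sgGal4 (1.10 ± 0.10; adjusted p = 3.63e-07 by edgeR). The groups did not overlap, although the sgDDX3 libraries lay further apart than the controls. The next genes are also signalling genes. RAPGEF1, an exchange factor for the small GTPase RAP1, was at 208 and 213 CPM with sgDDX3 and 110.2 and 103 CPM with sgGal4. The diacylglycerol kinase DGKQ was at 80.6 and 97.6 CPM with sgDDX3 and 43.1 and 46.6 CPM with sgGal4. CYTH3, an exchange factor for ARF GTPases, was at 51.9 and 50.7 CPM with sgDDX3 and 25.9 and 25.7 CPM with sgGal4. The log2 differences of these 3 were 0.98 ± 0.07, 0.99 ± 0.11 and 0.99 ± 0.09, and for each the lower sgDDX3 library lay well above the higher control.

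Transcriptional regulators gave the 2 highest folds among genes of 10 CPM or more without overlap between the guides. The zinc finger gene ZNF628 was at 63.6 and 64.9 CPM with sgDDX3 and 21.8 and 19.1 CPM with sgGal4 (1.63 ± 0.10, SE; adjusted p = 1.37e-09 by edgeR). RCOR2, a CoREST corepressor that pairs with the demethylase LSD1, was at 22.5 and 21.8 CPM with sgDDX3 and 8.14 and 7.09 CPM with sgGal4 (1.51 ± 0.14). In both genes the replicates lay close together and the guides far apart. Of 19 genes of the CoREST and LSD1 complex and its partners 6 were higher (31.6%, 3 to 6 over the alternatives) and 1 lower (5.26%). The shares over all genes were 7.68% and 6.39%. The median was 0.21 against -0.01 over all genes. RREB1, a zinc finger partner of the complex, was higher by 0.66 ± 0.06, and KDM1A, which encodes LSD1, by 0.32 ± 0.07. From day 0 to day 3 KDM1A changed by -0.02 ± 0.07 with sgDDX3 and by -0.29 ± 0.07 with sgGal4. GFI1B, a repressor that recruits the complex in erythroid cells, was the lower gene (-0.37 ± 0.08).

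Membrane and trafficking genes were also in the set. AP3D1, a subunit of the AP-3 adaptor for lysosomal sorting, was at 437 and 463 CPM with sgDDX3 and 231 and 227 CPM with sgGal4 (0.97 ± 0.07, SE). TJP1, the tight junction scaffold ZO-1, was at 80.5 and 84.0 CPM with sgDDX3 and 41.6 and 43.2 CPM with sgGal4 (0.96 ± 0.08). AMIGO1, a neuronal adhesion protein, was at 22.9 and 18.8 CPM with sgDDX3 and 7.75 and 8.86 CPM with sgGal4 (1.38 ± 0.12). All 3 were clearly separated between the guides. IL18R1, a receptor chain for interleukin-18, was at 15.5 and 13.9 CPM with sgDDX3 and 8.07 and 5.31 CPM with sgGal4, and its 2 control libraries differed from each other more than those of the other genes here (1.06 ± 0.15). Further members were CCDC112, a coiled-coil protein gene (1.246 ± 0.12), the unconventional myosin gene MYO15B (1.17 ± 0.11) and NUMBL, a relative of the Notch regulator NUMB (0.96 ± 0.12). Their lowest sgDDX3 values were 22.7, 28.3 and 18.3 CPM and their highest control values 10.7, 14.2 and 9.82 CPM. All 15 genes rose from day 0 to day 3 in the sgDDX3 cells, by 0.82 to 1.78 on the log2 scale, while in sgGal4 cells 1 rose and 1 fell. All 15 passed in each of 10 alternative fits, and the guide difference at day 0 was between -0.21 and 0.49 with none passing. The rise and the alternative fits use the day 3 values by which the genes were chosen, so for these genes they are a description. The lack of overlap between the guides was itself required in the choice.

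In the footprints of day 3, counted in separate libraries, 3 of these 15 genes were higher, 3 were lower and 9 did not pass. Footprints on MAP4K4 were at 51.4 and 45.0 CPM with sgDDX3 and 81.5 and 81.3 CPM with sgGal4, so the footprints were lower in both sgDDX3 libraries while the RNA was higher (-0.76 ± 0.10, SE; adjusted p = 0.00125 by edgeR). AP3D1 footprints were at 117 and 115 CPM with sgDDX3 and 162 and 158 CPM with sgGal4 (-0.46 ± 0.09). Both fell and passed. The MAP4K4 call held on leaving out any 1 of the 4 footprint libraries of day 3, while that of AP3D1 held in 1 of these 4 fits. IRAK1 footprints were at 22.9 and 21.8 CPM with sgDDX3 and 22.2 and 24.1 CPM with sgGal4, a difference of -0.05 ± 0.14 that did not pass. The zinc finger gene ZNF628 and the corepressor RCOR2, which lead in RNA, had footprint differences of -0.35 ± 0.17 and -0.14 ± 0.20, neither of which passed. TJP1 (0.54 ± 0.12), IL18R1 (1.17 ± 0.23) and MYO15B (1.30 ± 0.23) had more footprints and passed, and these calls held in 1, 2 and 2 of the 4 fits that leave out a library. The footprint difference minus the RNA difference, tested in 1 model of all 24 libraries, passed as negative for 12 of the 15, against 4.87% of 14853 genes, and as positive for 0, against 0.532% (5.41% in both directions). That contrast contains the RNA values by which the genes were chosen, so for them it is a description. It was -1.96 ± 0.13 for MAP4K4 and -2.01 ± 0.19 for ZNF628.

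**Figure D2:**
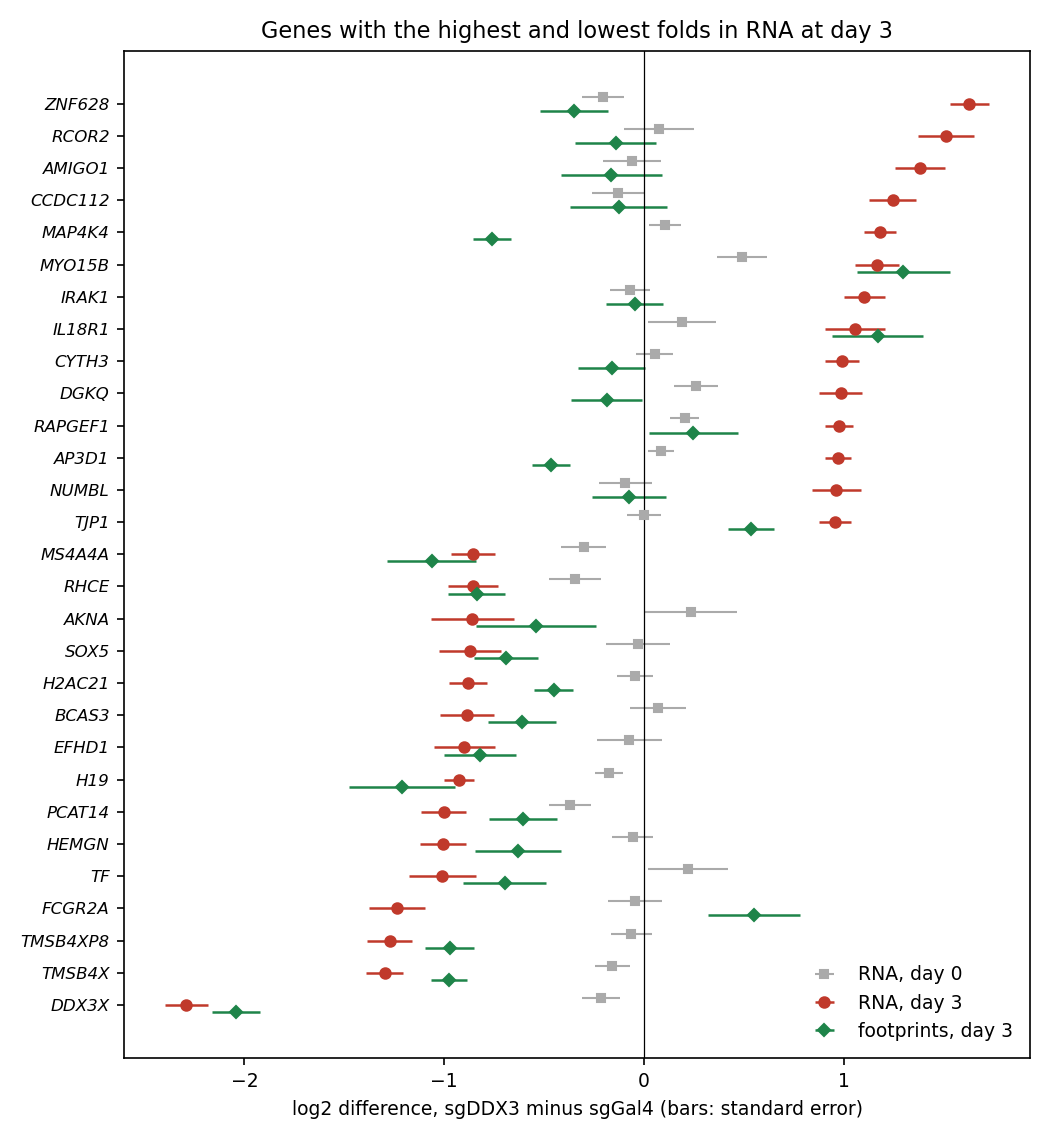
Log2 difference sgDDX3 minus sgGal4 (bars are standard errors, n = 2 libraries per group) of 29 of the 30 genes with the highest and lowest folds, in RNA at day 3 (red), RNA at day 0 (grey) and footprints at day 3 (green). Among the upper 14 genes drawn the green points scatter around 0 and 3 pass as higher and 2 as lower (MAP4K4 and AP3D1), while among the lower 15 genes 9 pass as lower.

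Over all calls, most higher genes had no footprint difference that passed. Of 1377 higher genes tested in footprints, 80 (5.81%, and 35.7% of the genes with more footprints) had more footprints and 100 (7.26%, and 24% of those with fewer) had fewer, with a median footprint difference of 0.05 on the log2 scale. Among 14853 genes tested in both assays these shares were 1.51% and 2.81%. Of 1134 lower genes tested in footprints, 129 (11.4%, and 30.9% of the genes with fewer footprints) had fewer footprints and 4 had more, with a median of -0.19. Footprint differences passed for 752 of 19780 genes (3.8%; 1.55% higher and 2.25% lower), so the footprint comparison made fewer calls than the RNA comparison. Its common coefficient of variation between replicates was also larger, at 9.99% against 6.13%. Without sgGal4 footprint replicate 1 only 121 footprint calls were made, and without replicate 2 only 140. Several named genes had more RNA and fewer footprints. EIF4EBP2, a repressor of the cap-binding protein eIF4E, had RNA at 446 and 417 CPM with sgDDX3 and 322 and 308 CPM with sgGal4 (0.46 ± 0.07, SE) and footprints at 21.2 and 19.4 CPM with sgDDX3 and 52.3 and 49.6 CPM with sgGal4 (-1.33 ± 0.11). RNA was higher and footprints lower in every sgDDX3 library. MAPKAPK2, a kinase downstream of p38, rose by 0.56 ± 0.07 in RNA and fell by 0.90 in footprints. CRELD2, an endoplasmic reticulum chaperone, was at 0.37 ± 0.12 and -0.96 ± 0.16, and the ARP2/3 complex subunit ARPC2 at 0.37 ± 0.08 and -0.73 ± 0.09. The cell cycle repressor E2F4 was at 0.51 ± 0.10 in RNA and -0.67 ± 0.11 in footprints. The footprint calls held in all 4 fits that leave out a footprint library, or in 3 of them for CRELD2 and E2F4. The RNA calls of CRELD2 and ARPC2 were lost without sgGal4 replicate 1, and that of CRELD2 also without sgDDX3 replicate 2 or sgGal4 replicate 2. EIF4G1, the scaffold of the cap-binding complex, rose in both, with RNA at 0.68 ± 0.12 and footprints at 0.96 ± 0.16.

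Genes of 4 signalling pathways (interleukin-1, stress kinase, Wnt and BCR-ABL) were higher more often than lower, and the shares of higher genes, 34.4%, 25%, 32.3% and 26.7% in this order, lay above the 7.68% of all genes. The shares of lower genes were 3.12%, 2.78%, 3.23% and 10%, against 6.39%. Over the alternatives the higher genes numbered 7 to 11, 6 to 10, 6 to 10 and 6 to 8. Of 32 tested genes of interleukin-1 and Toll-like receptor signalling 11 were higher and 1 lower (median 0.13). Besides IRAK1 and IL18R1 they include IL1RL1, the interleukin-33 receptor, at 5.41 and 5.22 CPM with sgDDX3 and 1.57 and 1.29 CPM with sgGal4 (1.84 ± 0.25, SE) and TNIP1, an inhibitor of NF-kappaB activation (0.47 ± 0.07). IL1RL1 footprints rose too (1.88 ± 0.45), a call lost on leaving out any 1 of the 4 footprint libraries. The RNA is scarce, DESeq2 gave no adjusted p for it, and its difference at day 0 was 0.67 ± 0.28, which did not pass. Of 36 genes of the stress-activated MAP kinase cascade 9 were higher and 1 lower (median 0.14), such as the mixed-lineage kinase MAP3K10 (0.76 ± 0.11) and the p38 isoform MAPK11 (0.48 ± 0.08). Of 31 Wnt signalling genes 10 were higher and 1 lower (median 0.14). DVL1, a Dishevelled protein that relays signals from Frizzled receptors, was at 163 and 179 CPM with sgDDX3 and 88.1 and 88.5 CPM with sgGal4 (0.95 ± 0.09). Its relative DVL3 (0.59 ± 0.07), the kinase CSNK1E (0.59 ± 0.07) and the beta-catenin coactivator BCL9L (0.67 ± 0.09) rose as well. None of the 30 Wnt genes tested in footprints had more of them, and 3 had fewer.

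Of 30 genes of BCR-ABL and STAT5 signalling, the pathway that drives K562 growth, 8 were higher and 3 lower. BCR was at 287 and 314 CPM with sgDDX3 and 219 and 224 CPM with sgGal4 (0.44 ± 0.07, SE) and ABL1 at 457 and 498 CPM with sgDDX3 and 323 and 321 CPM with sgGal4 (0.57 ± 0.07). In both genes the controls lay below both sgDDX3 libraries. Since K562 carries their fusion, reads of the fusion transcript and of the normal alleles cannot be told apart. The docking protein GAB2, which binds BCR-ABL through GRB2, rose by 0.75 ± 0.07. CISH, a STAT5 target that limits cytokine signalling, was lower in RNA (-0.61 ± 0.07) and in footprints (-0.58 ± 0.14). The footprint call held in 1 of the 4 fits that leave out a footprint library. From day 0 to day 3 CISH RNA changed by 0.12 ± 0.07 with sgDDX3 and by 0.79 ± 0.07 with sgGal4, so the control level had itself moved. Footprints on GAB2, ABL1 and BCR were at -0.09, -0.06 and -0.07, and did not pass.

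After DDX3X, the lowest gene by fold among those of 10 CPM or more without overlap between the guides was TMSB4X, which encodes the actin-monomer binding protein thymosin beta 4, at 104 and 92.6 CPM with sgDDX3 and 235 and 252 CPM with sgGal4 (-1.30 ± 0.09, SE; adjusted p = 1.03e-08 by edgeR). The sgDDX3 libraries held less than the controls by over 2-fold. Its footprints fell too (-0.97 ± 0.09). TMSB4XP8 (-1.27 ± 0.11) is a processed copy whose reads and those of TMSB4X may be mixed, which leaves both uncertain. The actins ACTB (-0.26 ± 0.06) and ACTG1 (-0.27 ± 0.07) were lower by less, and each call was lost on leaving out 1 library (sgDDX3 replicate 1 or sgGal4 replicate 2 for ACTB, the other two for ACTG1). FCGR2A, a low-affinity receptor for IgG, was at 19.7 and 14.9 CPM with sgDDX3 and 46.5 and 36.1 CPM with sgGal4 (-1.24 ± 0.14). Its footprints were at 476 and 253 CPM with sgDDX3 and 252 and 244 CPM with sgGal4, a difference of 0.55 ± 0.23 that did not pass and in which 1 sgDDX3 library lay near the controls. FCGR2B (-1.26 ± 0.37) and FCGR2C (-1.28 ± 0.21), near-identical relatives, were lower too, and reads can be shared among the 3. FCGR2B no longer passed when sgDDX3 replicate 1 or either sgGal4 library was left out. Footprints on these relatives were lower, at -1.58 ± 0.28 and -0.92 ± 0.16, calls that held in 2 of the 4 fits that leave out a footprint library.

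Of the 15 lowest genes, 5 had risen from day 0 to day 3 in the control cells, so the control level had itself moved. The genes were chosen by the day 3 values that such changes contain, so the changes given here and below are a description. TF, which encodes the iron carrier transferrin, was at 36.0 and 22.5 CPM with sgDDX3 and 66.8 and 54.4 CPM with sgGal4 at day 3, and at 17.998 and 19.5 CPM with sgDDX3 and 16.99 and 14.9 CPM with sgGal4 at day 0. It rose in both guides, by 1.94 ± 0.18 (SE) in sgGal4 and by 0.71 ± 0.19 in sgDDX3. The mitochondrial calcium-binding protein gene EFHD1 rose by 0.73 ± 0.15 in the controls and changed by -0.10 ± 0.16 with sgDDX3. MS4A4A, a tetraspan membrane protein, was at 16.3 and 16.4 CPM with sgDDX3 and 28.5 and 31.0 CPM with sgGal4 (-0.85 ± 0.11), and its 2 changes from day 0 were 0.39 ± 0.11 and -0.16 ± 0.12. For BCAS3, a cytoskeletal regulator, they were 0.69 ± 0.13 and -0.27 ± 0.14. For AKNA, a microtubule-organising protein first described as a transcription factor, they were 1.18 ± 0.22 and 0.09 ± 0.22. AKNA was at 30.3 and 16.7 CPM with sgDDX3 and 53.7 and 33.4 CPM with sgGal4, where the replicates of each guide lay far apart, and it did not pass by DESeq2 nor when sgDDX3 replicate 2 or sgGal4 replicate 1 was left out.

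Some of the other low genes fell between the days in the sgDDX3 cells. H19, the imprinted non-coding RNA, was at 97.2 and 102 CPM with sgDDX3 and 184 and 193 CPM with sgGal4 (-0.93 ± 0.07, SE), against 235 and 211 CPM with sgDDX3 and 246 and 258 CPM with sgGal4 at day 0. Replicates agreed closely, and H19 fell between the days in both guides, by 1.17 on the log2 scale with sgDDX3 and by 0.42 with sgGal4. HEMGN, an erythroid nuclear protein, was at 9.30 and 8.87 CPM with sgDDX3 and 17.96 and 19.003 CPM with sgGal4 (-1.01 ± 0.12). With sgDDX3 it fell by 1.28 from day 0. RHCE, which encodes a blood group antigen, was at 8.95 and 7.49 CPM with sgDDX3 and 14.6 and 16.3 CPM with sgGal4 (-0.86 ± 0.13), and did not change past the test between the days with either guide. RHD, its near-identical neighbour, stood at -1.01 ± 0.16, and reads of the pair can be shared. The prostate-cancer associated RNA PCAT14 was at 24.3 and 17.6 CPM with sgDDX3 and 45.1 and 41.3 CPM with sgGal4 (-1.002 ± 0.11), with a day 0 difference of -0.37 in the same direction. The developmental transcription factor SOX5 was at 15.5 and 12.5 CPM with sgDDX3 and 28.3 and 23.3 CPM with sgGal4 (-0.87 ± 0.16), and neither guide changed past the test between the days. The last of the 15 was H2AC21, a histone gene described next.

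**Figure D3:**
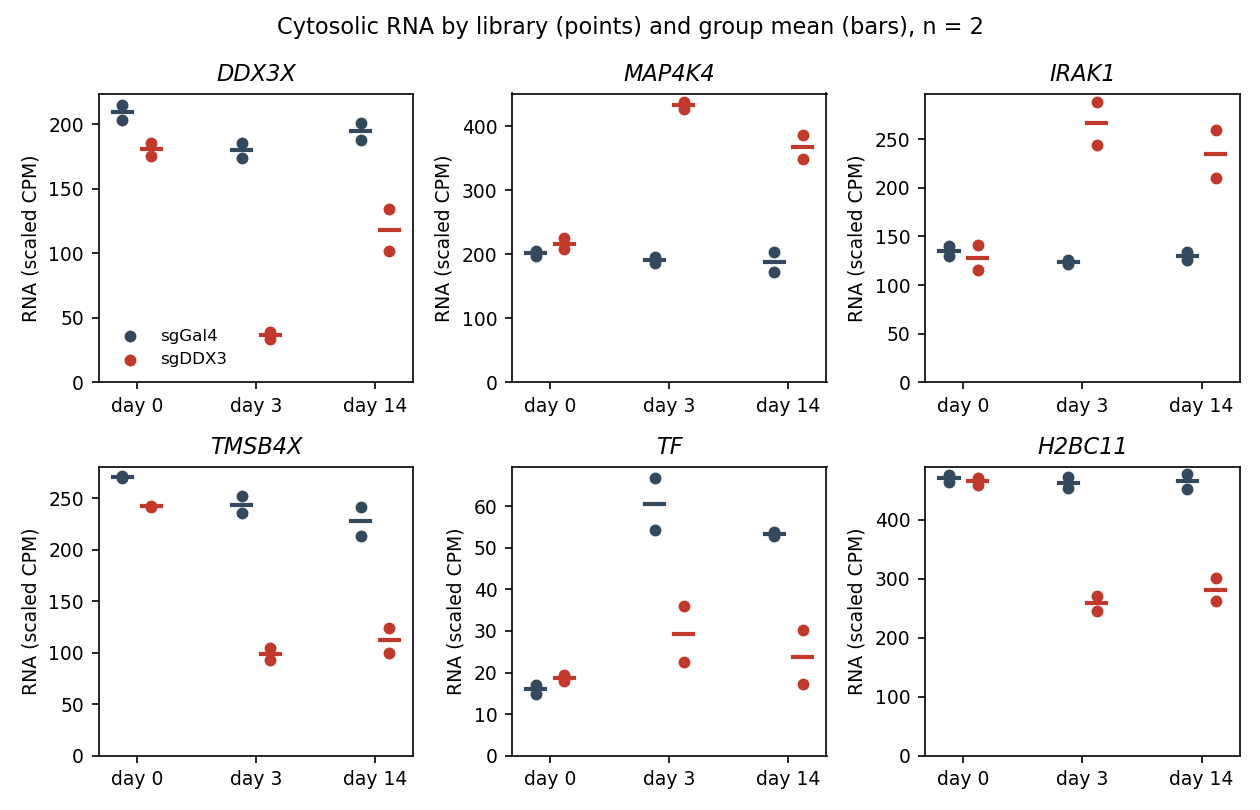
RNA level (scaled CPM, axes from 0) of 6 genes in each RNA library at days 0, 3 and 14, sgGal4 in dark blue and sgDDX3 in red, with bars at the mean of 2 libraries. DDX3X falls to 36.3 CPM at day 3, MAP4K4 and IRAK1 rise with sgDDX3, and TF rises between day 0 and day 3 in both guides.

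Among the 45 lists, the highest share of calls in 1 direction was in the replication-dependent histone genes, whose mRNAs lack a poly(A) tail and are made in S phase. The libraries were depleted of ribosomal RNA, and the labels describe no selection of poly(A) tails. Of 46 tested, 40 were lower (25 to 41 over the alternatives) and 0 higher, against 6.39% and 7.68% of all genes, with a median of -0.51 on the log2 scale. Summed over the 46 genes, they were at 8661 and 9809 CPM with sgDDX3 and 12661 and 14113 CPM with sgGal4. Both sgDDX3 libraries lay below both controls. H1-2, a linker histone, had the largest loss in CPM of them, at 662 and 771 CPM with sgDDX3 and 1142 and 1311 CPM with sgGal4 (-0.78 ± 0.07, SE; adjusted p = 5.19e-07 by edgeR). H2BC11 was at 246 and 270.2 CPM with sgDDX3 and 453 and 472 CPM with sgGal4 (-0.84 ± 0.07), and H2AC11, its neighbour, at 484 and 534 CPM with sgDDX3 and 765 and 807 CPM with sgGal4 (-0.63 ± 0.07). H4C12 (-0.67 ± 0.08), H2AC20 (-0.72 ± 0.07) and H2AC21 (-0.88 ± 0.10) complete the core histone examples. Histone copies are similar in sequence and can share reads, so single genes are less certain than the sum. Footprints passed as lower on 10 of 46 and as higher on 0 (median -0.25). The median at day 0 was -0.05. Replication-independent histones and histone mRNA processing factors were lower in 2 of 14 (14.3%).

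The promoters of this group are compact, and 2 of them are shown since the genes lie head to head with 247 bases between their start sites and fell together. They are the 150 bases before the start sites of H2BC11 (chr6:27132796-27132945, minus strand) and H2AC11 (chr6:27132893-27133042, plus strand), from RefSeq on GRCh38.p14. Capitals mark the TATA box, searched as TATAAA on the sense strand, and the CCAAT box, searched as CCAAT on both strands, where it reads ATTGG on the other.
H2BC11: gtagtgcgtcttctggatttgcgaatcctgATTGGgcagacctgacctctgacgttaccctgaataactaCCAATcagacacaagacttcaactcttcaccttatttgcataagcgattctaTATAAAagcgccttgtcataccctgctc
H2AC11: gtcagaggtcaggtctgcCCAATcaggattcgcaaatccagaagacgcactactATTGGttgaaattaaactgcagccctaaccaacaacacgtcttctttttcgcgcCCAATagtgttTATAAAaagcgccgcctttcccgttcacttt
In H2BC11 the TATA box begins 28 bases before the start site and the CCAAT boxes 80 and 120 bases before it. In H2AC11 the TATA box begins 31 bases before the start site and the CCAAT boxes 42, 96 and 132 bases before it. The stretches share 53 bases, so 1 CCAAT box appears in both. Among 42 histone genes with a RefSeq window of 250 bases before to 50 after the start site, 61.9% held TATAAA and 81% held CCAAT, against 3.72% and 35.4% of 10126 protein-coding genes tested. A match is a description of the letters, not a binding site.

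Genes of DNA replication were lower in large part, in 62% against 6.39% of all genes, and higher in 2% against 7.68%. Of 50 tested, 31 were lower (14 to 34 over the alternatives, 12 in all of them) and 1 higher, with a median of -0.33 and sums of 3165 and 3612 CPM with sgDDX3 and 4033 and 4215 CPM with sgGal4. CDT1, which loads the MCM helicase at origins, was at 181 and 177 CPM with sgDDX3 and 296 and 263 CPM with sgGal4 (-0.65 ± 0.07, SE; adjusted p = 2.54e-06 by edgeR), and its footprints fell too (-0.72 ± 0.10). PCNA, the sliding clamp, was at 92.2 and 104 CPM with sgDDX3 and 131 and 152 CPM with sgGal4 (-0.53 ± 0.08). The groups did not overlap in either gene, as in nearly all genes that passed. PRIM1, a primase subunit (-0.75 ± 0.09), and DTL, the adaptor for CDT1 degradation (-0.48 ± 0.08), were lower as well. Of 28 genes of nucleotide synthesis 12 were lower (7 to 13 over the alternatives) and 0 higher, led by RRM2, the ribonucleotide reductase subunit that is made in S phase, at 54.7 and 63.8 CPM with sgDDX3 and 104 and 101 CPM with sgGal4 (-0.81 ± 0.08). The share of lower nucleotide synthesis genes was 42.9%, against 6.39% of all genes. Thymidine kinase TK1 (-0.67 ± 0.10) and thymidylate synthase TYMS (-0.55 ± 0.09) also fell. The 3 genes were lower in footprints as well, at -0.70, -0.41 and -0.71. The calls of RRM2 and TYMS held in all 4 fits that leave out a footprint library, and that of TK1 in 1. Over the lists, footprints passed as lower on 3 of 50 replication and 4 of 28 nucleotide synthesis genes, and as higher on 0. Among all genes tested in both assays 2.81% had fewer footprints. At day 14, 6 of the 50 replication genes were lower and 5 higher, and the change between the days was not tested for the list.

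Of 41 mitosis genes 31 were lower (17 to 31 over the alternatives, 11 in all of them) and 0 higher, with a median of -0.35 and sums of 2575 and 2714 CPM with sgDDX3 and 3251 and 3314 CPM with sgGal4. AURKB, the kinase of the chromosomal passenger complex, was at 33.9 and 35.2 CPM with sgDDX3 and 51.3 and 60.2 CPM with sgGal4 (-0.68 ± 0.09, SE). NDC80, which joins kinetochores to microtubules, was at 28.2 and 30.7 CPM with sgDDX3 and 42.8 and 43.7 CPM with sgGal4 (-0.56 ± 0.09). Both genes were lower in both sgDDX3 libraries than in either control, as were nearly all genes that passed as lower. The checkpoint proteins MAD2L1 (-0.48 ± 0.09) and BUB3 (-0.40 ± 0.07) fell by less. The share of lower mitosis genes was 75.6%, against 6.39% of all genes, and that of higher ones 0%, against 7.68%. Of 40 mitosis genes tested in footprints 5 had fewer and 0 had more. Of 33 genes that control the G1 and S phases, 3 were higher (9.09%, 1 to 3 over the alternatives) and 9 lower (27.3%, 5 to 9). The lower ones include the activators E2F2 (-0.66 ± 0.08) and CDK2 (-0.39 ± 0.08), and the CDK-binding protein CKS1B (-0.46 ± 0.08). Of 19 p53 target genes 2 passed in each direction (10.5%), with GDF15, a stress-induced cytokine, lower (-0.72 ± 0.09).

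The replication and mitosis lists held different promoter letters. E2F factors bind sites like TTTNNCGC, known from S phase genes, and the cell cycle homology region, CHR, known from mitosis genes, reads TTTGAA or TTCGAA. Both were searched on both strands, and an E2F site may overlap a CCAAT box. The 100 bases before the start sites of 2 replication genes, CDT1 (chr16:88803689-88803788, plus strand) and PCNA (chr20:5126623-5126722, minus strand), and of 2 mitosis genes, CDCA8 (chr1:37692416-37692515, plus strand) and PLK1 (chr16:23678789-23678888, plus strand), are shown because each gene was lower and had 1 of the 2 smallest p in its list among those with the motif in this stretch. Capitals mark E2F sites in the first pair, CHR elements in the second, and CCAAT boxes in all. In CDCA8 a CHR and a CCAAT box share bases and form 1 run.
CDT1: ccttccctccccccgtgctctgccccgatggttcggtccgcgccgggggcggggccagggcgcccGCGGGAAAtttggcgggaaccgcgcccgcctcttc
PCNA: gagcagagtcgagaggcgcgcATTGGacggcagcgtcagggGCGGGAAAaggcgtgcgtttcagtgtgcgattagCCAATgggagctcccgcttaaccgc
CDCA8: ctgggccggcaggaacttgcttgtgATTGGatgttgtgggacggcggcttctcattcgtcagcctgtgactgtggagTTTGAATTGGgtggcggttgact
PLK1: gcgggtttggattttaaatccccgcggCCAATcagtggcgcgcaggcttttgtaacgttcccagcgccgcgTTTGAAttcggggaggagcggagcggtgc
E2F sites were in 39.5% of 43 replication promoters and 8.82% of 34 mitosis promoters, and CHR elements in 2.33% and 52.9%. Among all 10126 genes the shares were 9.23% and 9.8%. Among the 873 lower genes with a window they were 13.3% and 16.4%, and among the 1065 higher genes 7.14% and 6.67%. CCAAT was in 44.6% of the lower, 26.7% of the higher and 35.4% of all genes. No match says only that these letters are not in the window.

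Genes of the 16 lists drawn by member show the cell cycle lists to the left of 0 and the signalling lists partly to the right. The lists were chosen with earlier results of these data known, so their direction is a description.

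**Figure D4:**
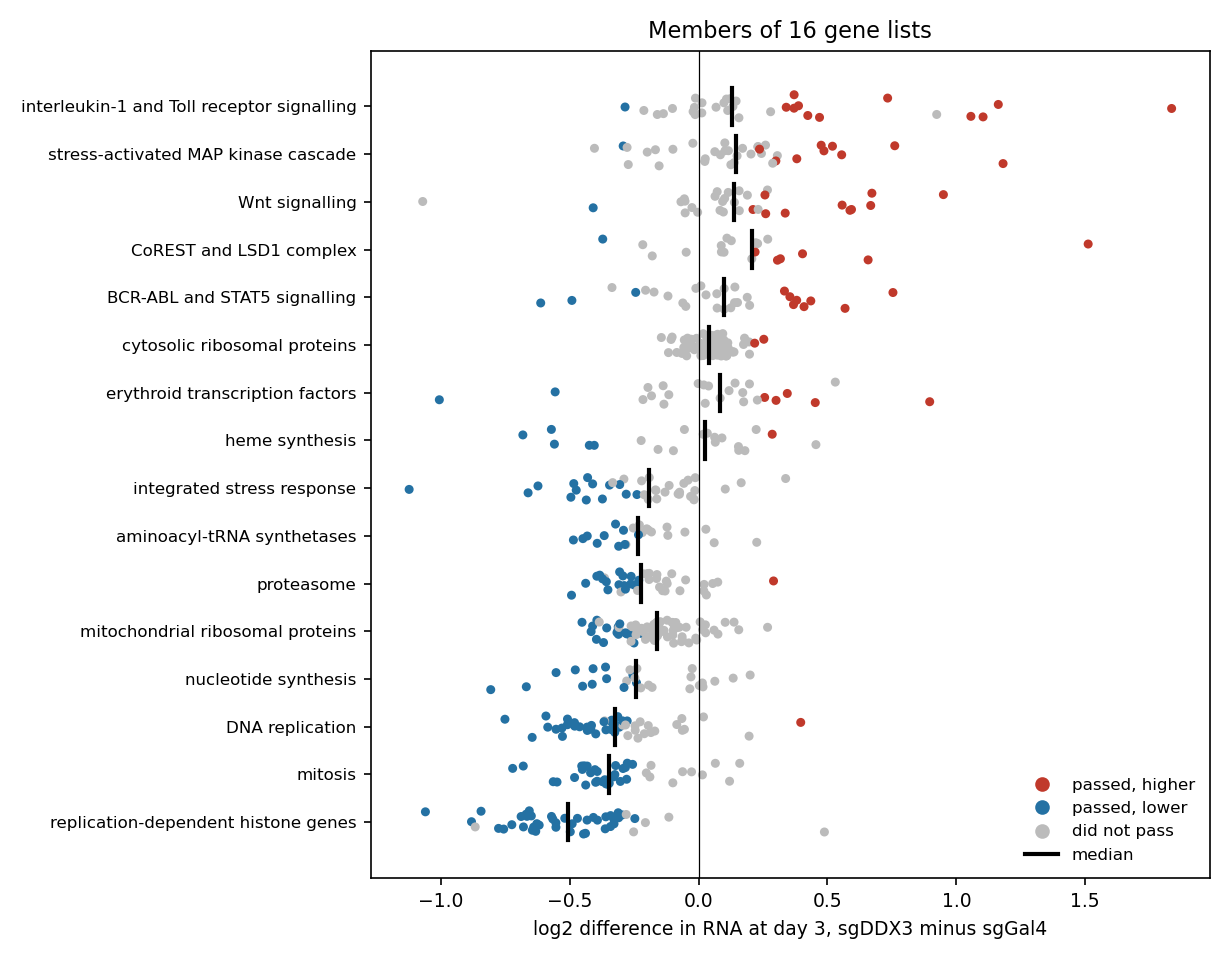
Each point is 1 gene of a list at its log2 difference in RNA at day 3, sgDDX3 minus sgGal4, red or blue where it passed at an adjusted p of 0.05 and grey where it did not, with a black bar at the median. The histone median lies at -0.51, that of mitosis at -0.35, and that of cytosolic ribosomal proteins at 0.04.

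Erythroid genes passed in both directions, beside shares over all genes of 7.68% higher and 6.39% lower. Among 25 transcription factors 5 were higher (20%, 2 to 5 over the alternatives) and 2 lower (8%, near the share over all genes). LMO4, a LIM-only cofactor, was at 131 and 139 CPM with sgDDX3 and 72.8 and 72.3 CPM with sgGal4 (0.90 ± 0.08, SE), and MYB, which keeps progenitors dividing, rose by 0.45 ± 0.07. KLF1, which activates globin and membrane genes, was at 43.4 and 47.8 CPM with sgDDX3 and 64.3 and 69.6 CPM with sgGal4 (-0.56 ± 0.10), lower in both sgDDX3 libraries. Of 20 heme synthesis genes 5 were lower (25%) and 1 higher (5%). The first enzyme ALAS2 (-0.68 ± 0.07) and the decarboxylase UROD (-0.57 ± 0.08) were lower in RNA and in footprints. So were the biliverdin reductase BLVRB (-0.56 ± 0.09) and the transporter ABCB10 (-0.40 ± 0.07), the last by 0.78 in footprints. The footprint calls of these 4 genes held in 4, 1, 3 and 4 of the 4 fits that leave out a footprint library, in this order. From day 0 to day 3 ALAS2 RNA changed by -0.19 ± 0.07 with sgDDX3 and by 0.37 ± 0.07 with sgGal4. Of 7 globin genes 4 were lower (57.1%, 1 to 5 over the alternatives) and 1 higher (14.3%), all at low levels or with shared reads. HBG2 was at 27.6 and 32.0 CPM with sgDDX3 and 34.6 and 43.2 CPM with sgGal4 (-0.38 ± 0.11) and HBE1 at 0.686 and 0.493 CPM with sgDDX3 and 2.96 and 3.14 CPM with sgGal4 (-2.26 ± 0.33). HBG2 no longer passed when sgDDX3 replicate 1 or sgGal4 replicate 2 was left out, and DESeq2 gave no adjusted p for HBE1. Among 31 genes of the red cell membrane 5 were higher (16.1%, 2 to 6) and 6 lower (19.4%, 3 to 7). The Rh-associated glycoprotein RHAG was lower (-0.74 ± 0.09). The cytoskeletal protein EPB41 was at 755 and 781 CPM with sgDDX3 and 576 and 563 CPM with sgGal4, higher by 0.43 ± 0.06. Of 22 iron handling genes 2 were higher and 3 lower (13.6%, 1 to 5), near the shares over all genes for the higher ones (9.09% against 7.68%). SLC40A1, the iron exporter ferroportin, was higher in RNA (0.49 ± 0.07) and in footprints (0.51 ± 0.11), the latter in 1 of the 4 fits that leave out a footprint library. None of 7 megakaryocytic markers passed by edgeR, with 2 at an unadjusted p under 0.05 and 0 by DESeq2. Of 16 oncofetal genes 1 was higher (6.25%) and 3 lower (18.8%), with IGFBP2, an insulin-like growth factor binding protein, at -0.82 ± 0.11.

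Genes for protein synthesis and folding were lower in part. The shares of lower genes in the lists of this paragraph were 36.8%, 43.5%, 42.5%, 26.5% and 22.4%, in the order given, against 6.39% of all genes. Those of higher genes were 0% to 2.5%, against 7.68%. Of 38 genes of the integrated stress response, the programme of ATF4, 14 were lower (5 to 15 over the alternatives) and 0 higher (median -0.19). The mitochondrial serine enzyme SHMT2 was at 275 and 259 CPM with sgDDX3 and 396 and 346 CPM with sgGal4 (-0.47 ± 0.08, SE), the cystine transporter SLC7A11 fell by 0.66, and the pseudokinase TRIB3 was at 226 and 177 CPM with sgDDX3 and 336 and 287 CPM with sgGal4 (-0.62 ± 0.12). Between the days SHMT2 changed by 0.50 ± 0.08 in the control cells, SLC7A11 by 0.19 ± 0.11 and TRIB3 by 0.85 ± 0.12. Of 23 aminoacyl-tRNA synthetase genes 10 were lower (5 to 11) and 0 higher, such as MARS1 for methionine (-0.43 ± 0.06) and the scaffold AIMP1 (-0.49 ± 0.09). Of 40 proteasome genes 17 were lower (5 to 17, with 4 in all alternatives) and 1 higher, with PSMD4, a ubiquitin receptor, at -0.39 ± 0.07. Of 34 chaperones 9 were lower (3 to 11) and 0 higher. The abundant HSP90AB1 was at 1325 and 1384 CPM with sgDDX3 and 1765 and 1725 CPM with sgGal4 (-0.37 ± 0.06) with footprints at 0.03 ± 0.17, and the chaperonin subunits CCT5 (-0.37 ± 0.07) and CCT8 (-0.36 ± 0.07) were lower. Of 76 mitochondrial ribosomal proteins 17 were lower and 0 higher, though 2 to 17 of them passed over the alternatives.

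Ribosomal protein genes held few calls (2.5% higher and 0% lower, against 7.68% and 6.39% of all genes). Of 80 cytosolic ribosomal proteins 2 were higher and 0 lower, and the sums were 74769 and 73836 CPM with sgDDX3 and 70430.2 and 73932 CPM with sgGal4, which overlap. Of 43 initiation factors and regulators 8 were higher (18.6%, 5 to 8 over the alternatives) and 5 lower (11.6%, 2 to 6). EIF4G1, the scaffold, was at 319.8 and 448 CPM with sgDDX3 and 228 and 249.9 CPM with sgGal4, with its sgDDX3 libraries far apart. EIF4G3, its relative, was higher by 0.41 ± 0.08 (SE), and EIF4EBP1, the companion of EIF4EBP2, was lower (-0.37 ± 0.08). From day 0 to day 3 EIF4EBP1 changed by 0.17 ± 0.08 with sgDDX3 and by 0.57 ± 0.08 with sgGal4. Of 52 DEAD and DEAH box helicases, DDX3X among them, 4 were higher (7.69%, 0 to 6 over the alternatives) and 5 lower (9.62%, 1 to 7), close to the 7.68% and 6.39% of all genes. Apart from DDX3X these had smaller differences, for example DDX52 (-0.39 ± 0.10) and DDX59 (0.39 ± 0.09), and both calls were lost without sgDDX3 replicate 1, that of DDX52 also without sgGal4 replicate 2 and that of DDX59 without sgGal4 replicate 1. Of 23 genes of nonsense-mediated decay 2 were higher (8.7%) and 1 lower (4.35%), also near these shares, with the kinase SMG1 at 0.41 ± 0.07. Of 41 ribosome biogenesis genes 0 were higher and 2 lower (4.88%). Of 16 hosts of small nucleolar RNAs, whose spliced RNAs are decayed on translation, 4 were higher (25%) and 2 lower (12.5%). Over the alternatives 1 to 5 were higher and 0 to 2 lower. SNHG7 was higher by 0.70 ± 0.11.

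Of 34 genes of cholesterol and fatty acid synthesis 11 were lower (32.4%, 3 to 11 over the alternatives, with 3 in all of them) and 3 higher (8.82%), against 6.39% and 7.68% of all genes. The squalene synthase FDFT1 (-0.43 ± 0.06, SE) and the isomerase IDI1 (-0.47 ± 0.09) were lower. The next lists, from lysosome to mitochondrially encoded genes, lay nearer to these background shares, and little can be read from their counts. Of 42 lysosome and autophagy genes 3 were higher (7.14%) and 2 lower (4.76%), with RUBCN, a negative regulator of autophagy (0.68 ± 0.09), ULK1, the initiating kinase (0.43 ± 0.08), and SQSTM1, the p62 receptor (0.39 ± 0.08). Of 30 genes of RIG-I, MAVS and interferon signalling, in which DDX3X has a described role, 4 were higher (13.3%, 2 to 5 over the alternatives) and 1 lower, with the adaptor TRAF3 higher (0.41 ± 0.08). Of 31 immediate early genes and MYC relatives 3 were higher and 4 lower, among them the MAX partner MXD4 higher (0.78 ± 0.08) and EGR1 lower (-0.71 ± 0.09). Of 32 glycolysis and hypoxia genes 3 were higher (9.38%) and 2 lower (6.25%), of 76 nuclear genes of oxidative phosphorylation 2 and 3, of 25 endoplasmic reticulum chaperone genes 2 and 2, and of 16 polyamine genes 2 and 2. None of 13 mitochondrially encoded genes passed by edgeR, with 2 at an unadjusted p under 0.05 and 0 by DESeq2. Of 29 thymosin and actin genes 3 were higher (10.3%, 1 to 3 over the alternatives) and 6 lower (20.7%, 2 to 6), and of 8 nuclear retained RNAs 1 and 1. The wider lists of other cell types held 0 higher genes. Lower were 5 of 15 myeloid (33.3%), 2 of 6 lymphoid (33.3%) and 1 of 5 fibroblast and epithelial markers (20%). These shares lay above the 6.39% of all genes but rest on few genes.

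By amount rather than by fold, the largest gain was that of MALAT1, a nuclear non-coding RNA, at 9022 and 8870.4 CPM with sgDDX3 and 7727 and 6621 CPM with sgGal4 (0.32 ± 0.07, SE). Its control libraries lay far apart, though below both sgDDX3 libraries, and the call was lost without sgGal4 replicate 2. PABPC1, the poly(A)-binding protein, was at 2891 and 2806 CPM with sgDDX3 and 2554 and 2410.4 CPM with sgGal4 (0.20 ± 0.06). PRRC2A, a large RNA-binding protein, was at 1013 and 1136 CPM with sgDDX3 and 824 and 809 CPM with sgGal4 (0.40 ± 0.07), and SRRM2, a spliceosome scaffold of nuclear speckles, at 1016 and 1162 CPM with sgDDX3 and 920.3 and 906 CPM with sgGal4 (0.25 ± 0.06). The groups did not overlap in any of them, as in nearly all genes that passed. The sgDDX3 libraries of SRRM2 lay further apart than the gap to the controls. Neither PABPC1 nor SRRM2 passed with sgDDX3 replicate 2 or with sgGal4 replicate 2 left out, and the call of PABPC1 was also lost without sgDDX3 replicate 1 and that of SRRM2 without sgGal4 replicate 1. The largest losses were of the 7SK pseudogenes RN7SKP80 (-0.25 ± 0.06) and RN7SKP71 (-0.21 ± 0.07), whose reads can be shared with 7SK RNA, then of H1-2, ACTB, HSP90AB1, other histones, ACTG1 and the glycolytic enzyme ENO1 (-0.32 ± 0.09). ENO1 no longer passed when sgDDX3 replicate 1 or sgGal4 replicate 2 was left out, nor RN7SKP80 without sgGal4 replicate 2, nor RN7SKP71 without any 1 of the 4 libraries, with the replicate block or with the newer form of the fit. The ACTB and ACTG1 calls were also lost on leaving out 1 library, as given above.

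Higher and lower genes differed in base composition near the start site. Over 10126 protein-coding genes with a RefSeq window (82.1% of 12339 tested), the first 50 transcribed bases had a median of 74% G and C among 1065 higher genes, 62% among 873 lower genes and 66% among the 8188 that did not pass. In 5 equal bins of this content, from a median of 52% to one of 80%, the share of higher genes was 5.73%, 4.84%, 6.72%, 12.6% and 22.7%. The share of lower genes was 14%, 11.6%, 8.25%, 5.48% and 3.85%. The median log2 difference went from -0.06 in the lowest bin to 0.12 in the highest, and in each of the 4 pairings of an sgDDX3 with an sgGal4 library the highest bin lay at 0.10 to 0.13 and the lowest at -0.08 to -0.06. Between replicates of 1 guide the medians moved by at most 0.02 in any bin. At day 0 they lay between -0.01 and 0.004, and at day 14 they went from -0.05 to 0.11. Footprints at day 3 had the opposite order at the ends, with 0.02 in the lowest and -0.05 in the highest bin. Content of the 250 bases upstream gave a like order (-0.06 to 0.12). Base composition can also change how well fragments are amplified and sequenced, and that was not tested beyond these replicate and day 0 values. Higher genes were longer as well, with a median gene length of 47.4 kb against 21.8 kb for lower and 28.8 kb for other genes. Over 5 bins of length the medians of replicates of 1 guide differed by up to 0.07, as much as the guide difference of 0.07 in the highest bin.

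**Figure D5:**
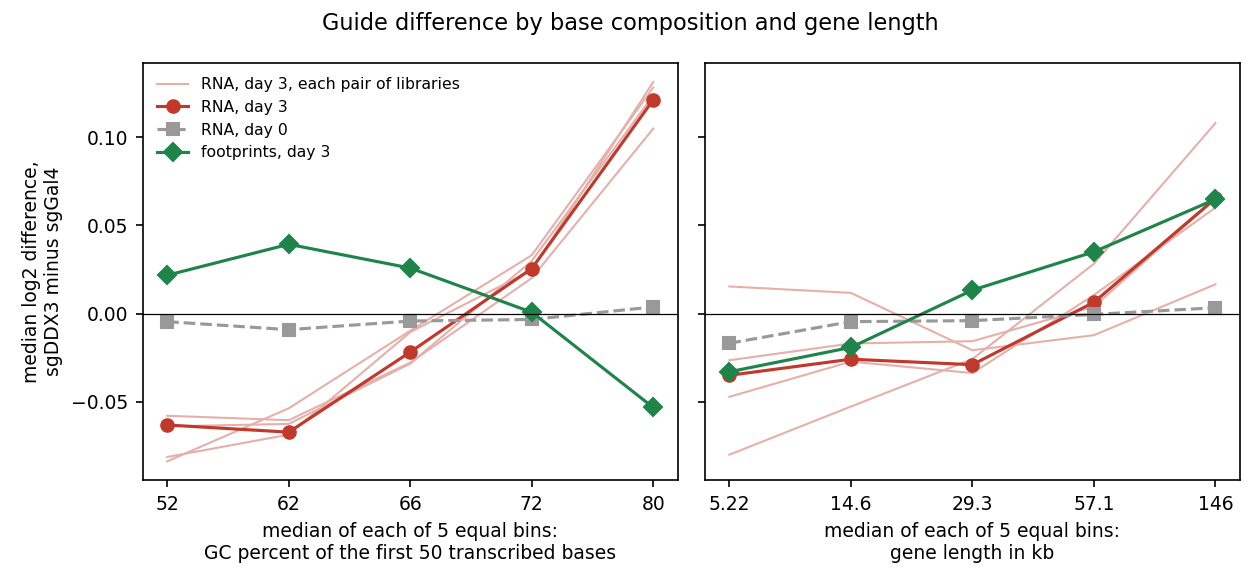
Median log2 difference sgDDX3 minus sgGal4 in 5 equal bins of 10126 protein-coding genes, by G and C content of the first 50 transcribed bases (left) and by gene length in kb (right), for RNA at day 3 (red, thin lines for the 4 pairs of libraries), RNA at day 0 (grey) and footprints at day 3 (green). In the left panel RNA at day 3 rises to 0.12 in the highest bin, where footprints lie at -0.05 and day 0 at 0.004.

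The contrast can be read in the letters before the start sites of MAP4K4 (chr2:101697607-101697706, plus strand) and IRAK1 (chrX:154019903-154020002, minus strand), the 2 most raised genes by CPM among the 15 highest that have a window. CG pairs are in capitals, from RefSeq on GRCh38.p14.
MAP4K4: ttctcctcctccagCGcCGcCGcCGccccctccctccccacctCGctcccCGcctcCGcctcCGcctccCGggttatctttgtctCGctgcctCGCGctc
IRAK1: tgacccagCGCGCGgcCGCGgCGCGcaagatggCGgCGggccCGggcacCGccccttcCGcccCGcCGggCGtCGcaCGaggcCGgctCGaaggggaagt
These 100 bases are 74% and 81% G and C, and the first 50 transcribed bases after them 80% and 86%. The 150 bases shown for H2BC11 and H2AC11, which fell, are 44.7% and 46%. CDT1, at 77%, shows that a lower gene can have a rich stretch as well.

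Many of the day 3 differences were present at day 14, in libraries that shared no sample with day 3. Of the 1405 higher genes 63.7% were higher again, which is 58.0% of the 1543 higher genes of day 14 (8.44% of those tested), and 4 were lower. Of the 1169 lower genes 43.9% were lower again, 45.4% of the 1131 lower genes of day 14 (6.18%), and 2 were higher. All of the 15 highest genes passed again, by 0.57 to 1.63 on the log2 scale, and 14 of the 15 lowest. PCAT14, the exception, stood at -0.21 ± 0.11 (SE). The guide difference changed between the days for 30 genes (0.164%; 0.082% upward and 0.082% downward). H2BC11 was at 261 and 301 CPM with sgDDX3 and 452 and 477 CPM with sgGal4 at day 14, MAP4K4 at 387 and 349 CPM with sgDDX3 and 203 and 173 CPM with sgGal4 and TMSB4X at 100.1 and 124 CPM with sgDDX3 and 213 and 242 CPM with sgGal4. In each of these 3 genes the guides were still apart at day 14, although DDX3X itself had returned to 60.6% of the control. Other genes did not pass again. Of 41 mitosis genes 31 were lower at day 3 and 9 at day 14, with medians of -0.35 and -0.15. The change was not tested for the list.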

How the data were processed

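RNA and ribosome footprints of K562 cells were measured in 24 libraries, of which the 4 RNA libraries of day 3 are the subject and the other 20 enter as comparison or to estimate spread. The deposited tables hold raw counts of reads per gene, 1 table an assay. The tools named in the submitters' processing notes are STAR 2.7.5a, Bowtie2 2.4.1 and cutadapt 3.4, beside DESeq2 and the build GRCh38, without a stated role. What counted the reads, with which annotation and strand setting, is not given in the sources used here, so overlapping, antisense and multi-copy genes are uncertain. The 45 copies of pseudoautosomal genes listed on the Y chromosome were dropped, which left 57992 genes, 41445 of them (71.5%) with a symbol.

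Counts were scaled by TMM, filtered with filterByExpr (minimum count 10) and tested with edgeR 4.0.16 (quasi-likelihood F-test, R 4.3.3) in 1 fit of the 12 RNA libraries with a term for each of the 6 groups, since a group of 2 libraries gives a poor estimate of its own spread. A gene passed at a Benjamini-Hochberg adjusted p of 0.05. Footprints were fitted in the same way, and the footprint difference minus the RNA difference in a joint fit of 24 libraries that was added after the data had been seen. Alternatives were DESeq2 1.42.0, other scaling, no filter, the 4 day 3 libraries only, a newer form of the fit, the replicate number as a block and leaving out each library. The scripts were tested on simulated data. Named genes are DDX3X, the 15 highest and 15 lowest by fold (at least 10 CPM, groups not overlapping), the 10 largest gains and the 10 largest losses in CPM, and up to 4 members of each of 45 lists by smallest p. Some genes that this rule names are not reported here. The members and lists were chosen with earlier results of these data known. CDCA8 and PLK1 were chosen by their promoter letters, and the cell type markers to check the label. Promoter windows are those of RefSeq (GRCh38.p14), at the outermost start site listed, which need not be the one used in K562. Symbols and coordinates are from the same release.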

Additional observations from a re-analysis of the deposited data

Results flagged for a closer look

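The guide difference at day 14 differed from that at day 3 for 3 of the 30 genes named by fold, tested as a contrast of the 2 differences by edgeR. For DDX3X the log2 difference rose by 1.57 (adjusted p = 7.16e-06), as its level returned towards the control. For the non-coding RNA PCAT14 it rose by 0.80 (adjusted p = 0.0408), from -1.002 to -0.21. For H19 it changed by -0.67 (adjusted p = 0.00353), from -0.93 to -1.60, so its difference was larger at day 14.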

How the results depend on the processing

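Of 183 named genes 121 passed in every alternative that gave an adjusted p. Of 1826 values under the alternatives 1671 stayed on the same side of the threshold, 155 did not and 0 changed sign. The 2574 calls of day 3 became 2187 by DESeq2, 2562 with relative log expression scaling, 2477 without the filter, 2252 from the 4 day 3 libraries alone, 2742 with the newer fit and 2343 with the replicate block. Leaving out 1 library gave 1342 to 1962, the lowest without sgGal4 replicate 2 (1342) or replicate 1 (1383), where the control group keeps 1 library that is assumed to vary like the other groups. Of the main calls 50.4% to 61.8% were shared with those fits. The change from day 0 gave 316 to 612 genes on leaving out a library (316 without sgGal4 replicate 1, 330 without replicate 2), and 519 with the replicate block. Footprint calls were 570 by DESeq2, 759 with the replicate block and 121 to 713 on leaving out a library, with 413 without sgDDX3 replicate 2. Footprint minus RNA calls (803) were 465 to 1000 on leaving out a library, the lowest without sgGal4 footprint replicate 1, and 795 with the replicate block. The cause was not tested. By replicate number, the deviations of the 2 day 3 groups correlated at 0.0444 over genes, a single value over all genes that cannot exclude a shared part. From the shortest to the longest bin of gene length, the median of replicate 2 minus replicate 1 went from 0.07 to -0.05 with sgDDX3. With sgGal4 it went from 0.04 to -0.05. Whether the libraries were paired was not tested further. Of 450 list medians under the alternatives 25 changed sign. Depth limits scarce genes, since 3 counts are up to 0.292 CPM at day 3.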
